A study of Mus musculus with 6 samples.

Results

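Binding of the transcription factor E2F1 was described at 10 genes of the Myb and Myc networks in NIH/3T3, a widely used fibroblast line that was established from mouse embryos. The genes were chosen by name: Myb, Mybl1, Mybl2, Myc, Mycn, Mycl, Max, Mxd1, Mxd3 and Mxi1, 10 of the 21887 protein-coding genes with a position on an assembled chromosome. Earlier results of these data were known when they were chosen. All cells carried a doxycycline-inducible construct, integrated stably, that encoded E2F1 or was an empty vector (EV). They were grown in 10% serum, starved for 48 hours in medium with 0.25% serum, and collected after 12 hours of doxycycline. The treatment protocol gives 500 ng/ml doxycycline, but the names of the deposited lists carry another figure, so the dose is not settled. Chromatin immunoprecipitation followed by sequencing (ChIP-seq) gave 1 peak list per library, with 2 libraries per construct. The labels do not say whether the libraries came from separate cultures or whether a line was a single clone. The EV cells keep their own E2f1 gene. The antibody is not given in the sources used here, and the precipitated protein is taken to be E2F1. Whether the antibody could detect the E2F1 of the EV cells is not known. A peak was assigned to a gene when it touched the span between the gene's annotated boundaries or came within 1000 bp of it. Assigned in this way, 9 of 7836 peaks of E2F1 replicate 1 and 11 of 8027 peaks of E2F1 replicate 2 lay at the 10 genes. None of the 70 peaks of EV replicate 1 or the 358 of EV replicate 2 did.

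E2F1 is a transcription factor that drives genes needed for entry into S phase once the retinoblastoma protein releases it. The Myb family and the Myc family are transcription factors tied to the same step: Myc proteins bind E-box DNA as dimers with Max, and Mxd and Mxi1 proteins compete for Max and repress. Mybl2, also called B-Myb, joins the MuvB complex to switch on genes of the later cell cycle, and Myc and Mybl2 are textbook examples of genes under E2F control in serum-stimulated fibroblasts. Peaks in these lists carry a deposited fold enrichment, the authors' ratio of the read pileup at the summit to the local background. At the 10 genes a fold was ranked within its own list and not compared in size between lists.

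A peak was listed in both E2F1 libraries at 6 of the 10 genes, namely Mybl1, Mybl2, Myc, Mycn, Mxd3 and Mxi1. Of all protein-coding genes, 34.4% met the same rule. The same 6 genes were found with peaks within 1000 bp of a gene boundary, a rule that 30.9% of all protein-coding genes met, and 5 of them, all but Mycn, with peaks whose score reached the median of their list, which 17.1% met. Mxd1 had a peak in E2F1 replicate 2 and none in replicate 1, and Myb, Mycl and Max had none in either. The number of the 10 genes with a peak was 6 in E2F1 replicate 1, 7 in E2F1 replicate 2 and 0 in each EV library. The mean was thus 6.50 ± 0.707 genes (SD, n = 2) with the E2F1 construct against 0 in both EV libraries, a difference of 6.50 genes. The groups did not overlap. In an exact two-sided permutation test over the 4 libraries p was 0.333. No lower value is possible with 2 libraries a group, so a threshold of 0.05 is out of reach. The share of all protein-coding genes with a peak was 36.9% and 38.2% in E2F1 replicates 1 and 2, against 0.0366% and 0.407% in EV replicates 1 and 2, so 0 of 10 genes is near the EV background. The lists end at a p-value of 1e-10, and a gene without a listed peak may still carry weaker signal.

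**Figure D1:**
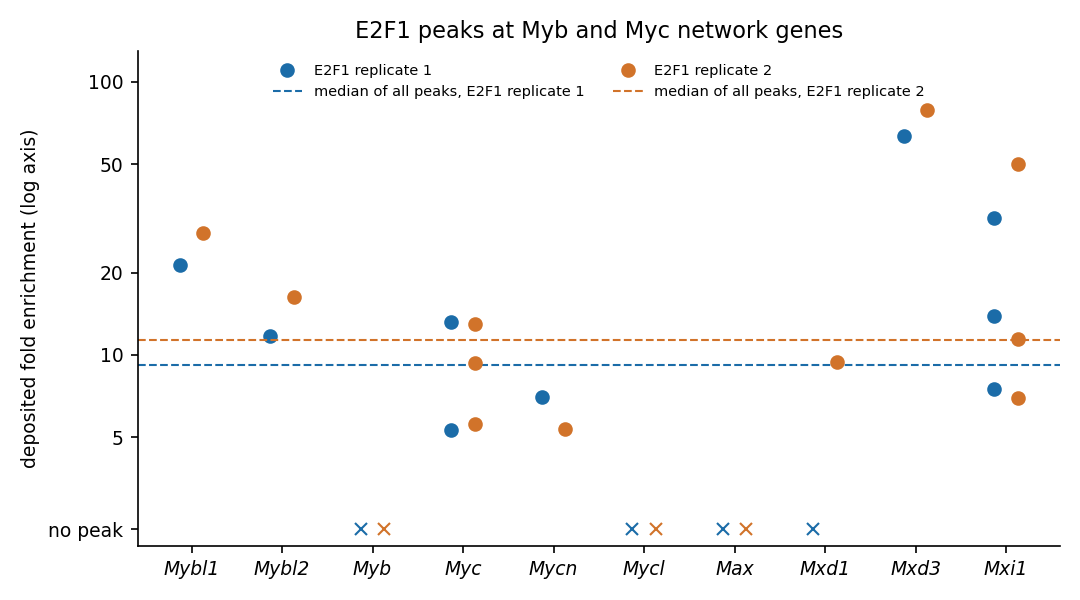
Deposited fold enrichment (log axis) of every peak at the 10 genes in the E2F1 libraries, 1 point per peak, blue for replicate 1 and orange for replicate 2; crosses on the lowest line mark genes with no listed peak, and dashed lines the median fold of all peaks in each list (9.19 and 11.3). Mxd3 has the highest point in both lists, Mycn lies below both medians, and Myb, Mycl and Max have crosses in both.

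The repressor gene Mxd3 carried the highest peak of the 10 genes in both lists. Mxd3 encodes a Max partner that opposes Myc and is known for its expression during S phase. In E2F1 replicate 1 its peak spanned chr13:55329079-55330545, with a fold of 63.4 that ranked 8 in the list. In E2F1 replicate 2 it spanned chr13:55329246-55330555, with a fold of 79.0 and rank 29. The replicates thus placed it above 99.9% and 99.6% of their peaks. The intervals overlapped by 1300 bp and their summits lay 69 bp apart. Both summits were outside the gene, 131 and 200 bp beyond its upper boundary, which is the promoter side, since the gene runs on the minus strand. The read pileup behind a fold was solved from the deposited fold and p-value: it was 209 reads over a local background of 2.31 in replicate 1, and 267 reads over 2.39 in replicate 2. The genes whose highest peak was nearest to that of Mxd3 in log2 fold over the 2 E2F1 lists were P2rx3 and Ssrp1, which share 1 peak and lay at a distance of 0.191, and Tfdp1, at 0.227. Ssrp1 encodes a histone chaperone subunit and Tfdp1 a dimer partner of E2F proteins.

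Mxi1, which encodes another Max-binding repressor, had 3 peaks in each E2F1 list, and the highest was inside the gene and not at its first promoter. The gene spans 63166 bp on the plus strand, and the promoter table gives starts at 53310506, 53329413 and 53329695 on chromosome 19. The inner peak spanned chr19:53329294-53330205 in replicate 1, with a fold of 31.8 that exceeded 97.1% of the list. In replicate 2 it spanned chr19:53329264-53330217, with a fold of 50.2, above 97.6% of the list. Its summits lay 83 and 75 bp downstream of the start at 53329413 and within 8 bp of each other, more than 19 kb inside the gene (19368 and 19360 bp from its lower boundary). The pileup there was 178 reads over a background of 4.63 in replicate 1, and 211 over 3.22 in replicate 2.

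At the first promoter of Mxi1 the fold was 13.9 in replicate 1, above 74.4% of the list, and 11.4 in replicate 2, above 50.3%. The summits were 239 and 209 bp downstream of the first start. In replicate 1 this peak was 2406 bp wide, wider than 96.1% of its list, and in replicate 2 it was 790 bp wide. The third peak, 3162 and 3272 bp downstream of the first start, had folds of 7.52 and 6.96. Within each library the order of the Mxi1 peaks by fold was therefore inner promoter, first promoter and the site between them. The peak numbers given by the authors' caller run from 4652 to 4655 across the gene in replicate 2, and the number after the first is not among the listed peaks, which leaves room for 1 weaker called peak between the first and second listed ones. The wide replicate 1 peak reaches into that stretch.

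**Figure D2:**
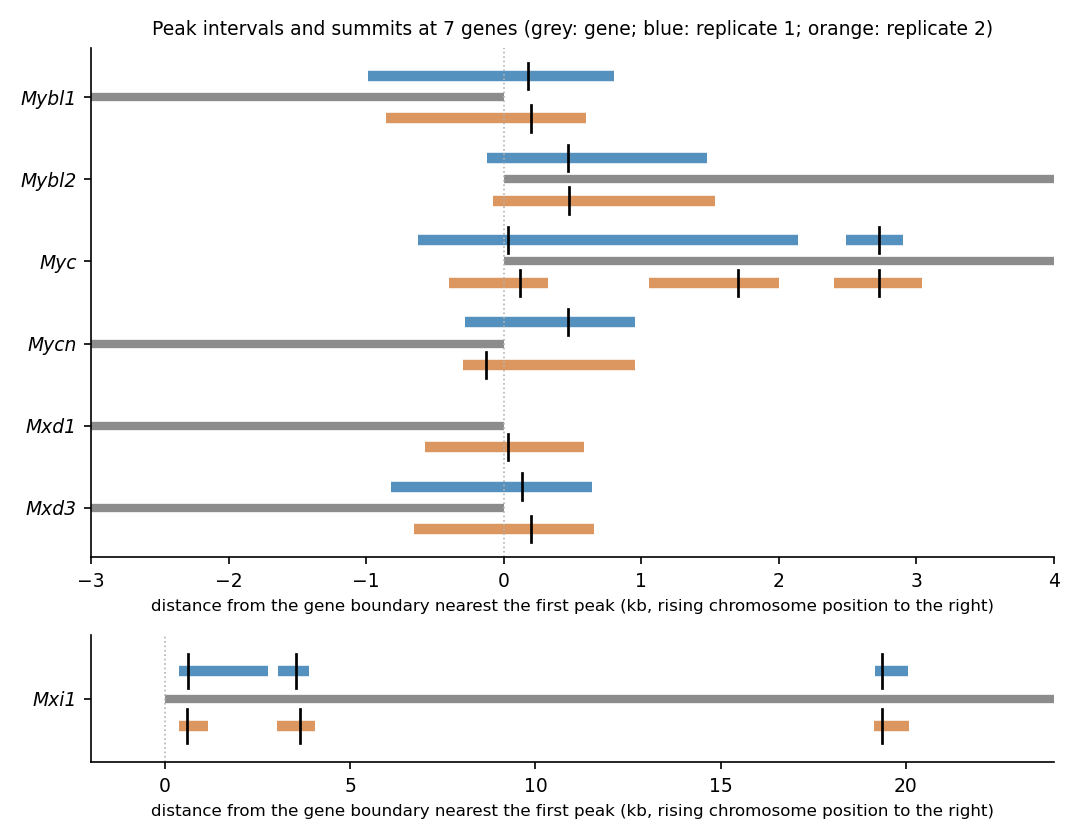
Peak intervals (coloured bars) with their summits (black ticks) at the 7 genes with a peak, blue for E2F1 replicate 1 above and orange for E2F1 replicate 2 below the gene (grey), against the distance in kb from the gene boundary nearest the first peak; Mxi1 has its own scale. At Myc the wide replicate 1 interval of 2764 bp covers the space of 2 replicate 2 intervals, and at Mxi1 the third pair of bars lies 19 kb inside the gene.

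Of the Myb family, Mybl1 and Mybl2 had a peak in both lists, and Myb had none. Mybl1 encodes A-Myb, known as a regulator of male meiosis. Its peak spanned chr1:9699454-9701244 in replicate 1 and chr1:9699586-9701040 in replicate 2, with folds of 21.4 and 28.0. These exceeded 90.5% and 87.8% of the peaks of their lists. The summits were 20 bp apart, 180 and 200 bp beyond the upper boundary of the gene, with pileups of 115 reads over 4.43 and 146 reads over 4.26. Mybl1 and Mxd3 were alike in that both summits of each lay outside the gene within 200 bp of its upper boundary.

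Mybl2 had a lower peak than Mybl1 in both lists. It spanned chr2:163054205-163055804 in replicate 1, with a fold of 11.7, and chr2:163054246-163055867 in replicate 2, with a fold of 16.3. The folds exceeded 65.5% and 67.9% of the lists, so this peak was somewhat above the middle of each. The summits were 6 bp apart and lay 161 and 167 bp downstream of the annotated start at 163054635, inside the gene. Pileups were 56 reads over 3.86 and 53 reads over 2.32. No peak of any list lay within 1000 bp of Myb, which encodes the founding member of the family and is known for its role in blood progenitors. The nearest E2F1 peaks were 135 kb away in both replicates, with folds of 5.03 and 8.13. The listed peaks on either side of Myb were 343 kb apart in both E2F1 lists, and the caller's numbers of these neighbours leave 0 unlisted peaks between them in either.

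Myc had several peaks, which ranked from above the middle of each list to among its lowest. The highest lay at the lower boundary of the gene, with a fold of 13.2 in replicate 1, above 72.2% of the list, and 13.0 in replicate 2, above 57.3%. Its summits were 33 and 120 bp inside that boundary, with pileups of 49 reads over 2.78 and 60 reads over 3.71. Replicate 1 listed it as a single interval, chr15:61984717-61987480, which at 2764 bp was wider than 98.1% of its list. Replicate 2 listed 2 shorter intervals in the same space, chr15:61984946-61985663 and chr15:61986396-61987344, the second with a fold of 9.36. Both lay wholly within the replicate 1 interval. A further peak inside the gene had folds of 5.32 and 5.58, among the lowest of each list (above 10.1% and 9.03% of peaks), and its summits were 1 bp apart. Myc and Mxi1 were the 2 genes of the 10 with 2 or more peaks in both lists, which 1.69% of all protein-coding genes had.

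Taking the highest peak of each gene, Mycn ranked last of the 6 genes in both lists. Mycn encodes N-Myc, known from neural progenitors and neuroblastoma. The peak covered nearly the same interval in both replicates, chr12:12941552-12942791 and chr12:12941540-12942794, but its folds were 7.02 and 5.35, above 31.2% and 6.90% of the lists. The −log10 p was 13.8 and 12.2, close to the value of 10 at which the lists end. The pileups were 19 reads over 1.85 and 23 reads over 3.48. The summits lay 599 bp apart, 470 bp upstream of the annotated start in replicate 1 and 129 bp downstream of it in replicate 2, so the lists do not fix the position of the maximum. Mycl, which encodes L-Myc, had no peak in any list. The nearest E2F1 peak to Mycl was 14.1 kb away in replicate 1, with a fold of 5.59, and 109 kb away in replicate 2, with a fold of 18.2.

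Max, which encodes the shared dimer partner of the Myc, Mxd and Mxi1 proteins, had no listed peak. The nearest were 98.7 and 99.1 kb away in replicates 1 and 2. Between the listed neighbours of Max the caller's numbers leave 2 unlisted peaks in replicate 1 and 0 in replicate 2, over about 400 kb (399 and 400 kb); the lists do not give the position of an unlisted peak. Mxd1, a Max-binding repressor gene linked to differentiation, was the 1 gene listed in a single E2F1 library. In replicate 2 its peak spanned chr6:86668662-86669816, with a fold of 9.45, above 39.4% of the list, a −log10 p of 23.2 and a pileup of 29 reads over 2.18. The summit was 107 bp upstream of the annotated start. In replicate 1 the nearest peak was 63.4 kb away, and the caller's numbers leave 2 unlisted peaks between the listed neighbours of Mxd1, which are 204 kb apart. A weaker called peak at Mxd1 is therefore possible in replicate 1. Of the 596 replicate 2 peaks with a score within 10% of the Mxd1 peak's 201, 518 (86.9%) were overlapped by a replicate 1 peak, so such a peak is usually found in both. A peak in replicate 2 and not in replicate 1 was seen at 3.78% of all protein-coding genes.

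**Figure D3:**
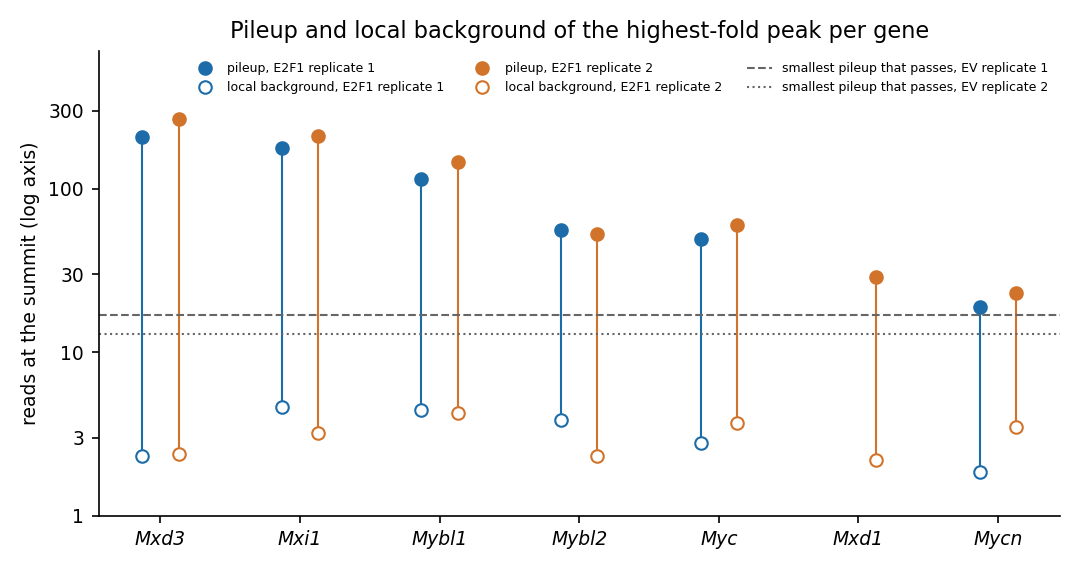
Reads at the summit of the highest-fold peak of each gene (log axis), filled points for the solved pileup and open points for the local background, blue for E2F1 replicate 1 and orange for E2F1 replicate 2; horizontal lines give the smallest pileup that would pass the p-value filter of the lists at the lowest background of EV replicate 1 (17 reads) and EV replicate 2 (13 reads). Pileups fall from 209 and 267 reads at Mxd3 to 19 and 23 at Mycn, and Mxd1 has no replicate 1 point.

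Depth bears on the empty EV entries. The lowest local background among the listed peaks of a library was taken as its genome-wide level and a measure of depth. It was 1.85 and 1.86 reads in E2F1 replicates 1 and 2, 2.20 in EV replicate 1 and 1.18 in EV replicate 2. At these levels a site needs 17 reads in EV replicate 1 and 13 in EV replicate 2 to pass the filter of the lists. A minimum over few peaks may lie above the genome-wide level. EV replicate 1 listed 70 peaks, so its level and its limit may be too high. More reads are needed where the local background is higher. In the E2F1 libraries it reached 4.63 reads at the highest peaks of these genes. The highest peaks of Mxd3, Mxi1 and Mybl1 had at least 115 reads in the E2F1 libraries, while Mycn, with 19 and 23 reads, was close to those limits. Induced E2F1 and the efficiency of the precipitation cannot be told apart here, since both follow the construct. With the antibody not given, the empty EV entries do not show whether the EV cells' own E2F1 was bound at these genes.

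Ordered by the mean percentile of their highest peak over the E2F1 lists, the 6 genes were Mxd3 (99.8 ± 0.183), Mxi1 (97.3 ± 0.402), Mybl1 (89.1 ± 1.91), Mybl2 (66.7 ± 1.71), Myc (64.7 ± 10.5) and Mycn (19.0 ± 17.2; SD, n = 2 for each). Mybl2 and Myc did not differ beyond the spread between replicates, while the values of the other neighbours in this order did not overlap. The percentile of a gene differed between the replicates by 0.259 points at Mxd3 and 0.568 at Mxi1, against 14.9 at Myc and 24.3 at Mycn. The median difference over all 7537 protein-coding genes with a peak in both lists was 13.1 points. A percentile near the top of the scale has little room to differ, so the small values at Mxd3 and Mxi1 do not show closer replicates. By rank Mxd3 was 8 in replicate 1 and 29 in replicate 2. The highest folds of the 6 genes had medians of 17.3 and 22.1 in replicates 1 and 2, beside 10.2 and 13.1 over those 7537 genes. Genes that have no listed peak enter neither median.

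**Figure D4:**
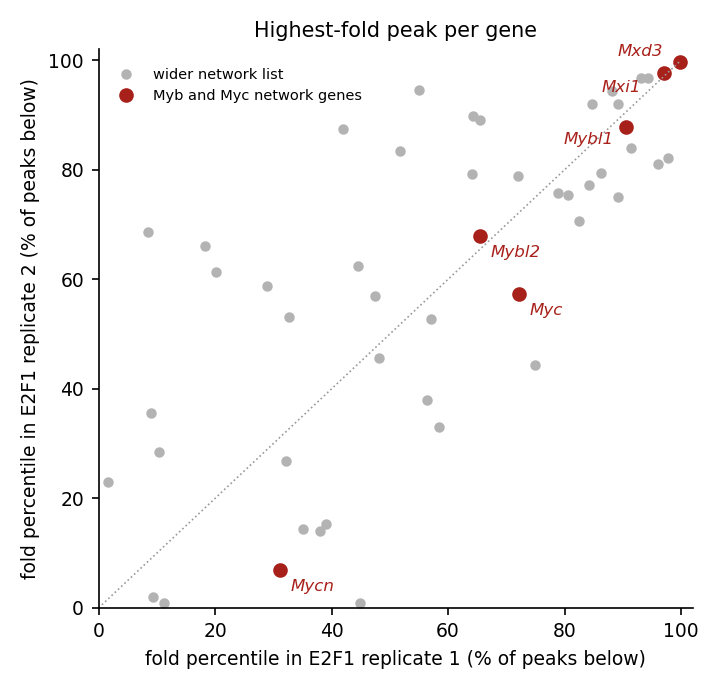
Share of a list's peaks with a lower fold than the highest peak of a gene, E2F1 replicate 1 on the horizontal and replicate 2 on the vertical axis (percent), red for the 6 Myb and Myc network genes with a peak in both lists and grey for genes of the wider list. Mxd3, Mxi1 and Mybl1 lie at the upper right close to the diagonal, and Myc and Mycn lie 14.9 and 24.3 points below it.

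Promoter sequence was available in the RefSeq table (GRCm38.p6) for 8 of the 10 genes, all but Mybl1 and Myc, as windows from 250 bases before to 50 bases after each start. The windows were searched on both strands for 5 exact forms of the E2F consensus, TTTGGCGC, TTTCCCGC, TTTCGCGC, TTTGCCGC and TTTGGCGG. Of all 32851 promoter windows, 2.78% held at least 1 of these, and of the 6993 windows touched by a peak in both E2F1 lists, 6.95% did. The windows of Mycn and Myb held such a match and the other 8 windows, of 6 genes, did not. The 250 bases before the start of Mycn (chr12:12941837-12942086, minus strand) and of Myb (chr10:21160985-21161234, minus strand) are shown 5′ to 3′ because they pair consensus matches with the lowest-ranked of the 6 genes and with a gene without a peak; capitals mark the matches.
Mycn: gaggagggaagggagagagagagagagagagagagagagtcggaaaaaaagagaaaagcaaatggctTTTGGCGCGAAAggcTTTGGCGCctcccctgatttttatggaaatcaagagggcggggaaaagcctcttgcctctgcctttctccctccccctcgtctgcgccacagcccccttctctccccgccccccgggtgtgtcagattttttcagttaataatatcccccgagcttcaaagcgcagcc
Myb: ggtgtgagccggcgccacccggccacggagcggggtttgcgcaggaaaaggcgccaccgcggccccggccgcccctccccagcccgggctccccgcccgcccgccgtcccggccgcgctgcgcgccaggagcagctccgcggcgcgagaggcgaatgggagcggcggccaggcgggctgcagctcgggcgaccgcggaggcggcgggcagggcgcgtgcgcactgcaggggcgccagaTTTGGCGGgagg

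In Mycn the form TTTGGCGC stood at positions −183 to −176 and −168 to −161, counted from the start base as +1 with no 0. TTTCGCGC was read on the other strand at −179 to −172, overlapping the first. TTTGGCGC was found in 0.514% and TTTCGCGC in 0.323% of all windows. Both lay inside the listed Mycn intervals and between their 2 summits. Myb held TTTGGCGG, found in 0.560% of all windows, at −12 to −5. Thus the gene with 3 exact matches ranked last of the 6 by fold, and a gene with 1 exact match had no listed peak. Of the 6, Mybl1 and Myc had no window to search. Near forms were not counted, such as CTTGGCGG before the Mybl2 start, which differs from TTTGGCGG at 1 base. Whether matches go with fold was not tested. A match is a description of the letters and not a measured site.

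The promoters of the genes with the highest peaks are shown next. They are the 250 bases before the start of Mxd3 (chr13:55329732-55329981, minus strand) and before the inner start of Mxi1 at 53329413 (chr19:53329163-53329412, plus strand), with capitals for GGGCGG, the GC box bound by Sp1-type factors, on either strand. A match that runs past the start is capitalised up to it.
Mxd3: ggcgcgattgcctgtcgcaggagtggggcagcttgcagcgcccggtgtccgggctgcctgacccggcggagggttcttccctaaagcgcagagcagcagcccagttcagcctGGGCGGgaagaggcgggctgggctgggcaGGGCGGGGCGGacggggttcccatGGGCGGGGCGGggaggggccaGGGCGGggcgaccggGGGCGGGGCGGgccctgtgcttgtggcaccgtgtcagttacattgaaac
Mxi1 inner promoter: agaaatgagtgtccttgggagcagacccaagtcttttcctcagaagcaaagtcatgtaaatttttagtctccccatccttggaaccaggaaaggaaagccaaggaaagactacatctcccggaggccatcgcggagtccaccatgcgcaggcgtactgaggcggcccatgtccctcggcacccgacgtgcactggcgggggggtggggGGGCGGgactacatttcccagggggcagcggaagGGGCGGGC

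The Mxd3 window held 8 GC boxes and the Mxi1 window 4, some of them overlapping, while 35.7% of all windows and 77.2% of those touched by a peak in both E2F1 lists held at least 1. The summits of Mxd3, 300 and 369 bp upstream of this start, lay outside the window, as did those of Mybl2 and Mycn, so the sequence under these maxima was not searched. Part of the Mxd3 window lies inside the annotated gene, whose upper boundary is at 55329900. The summits of the inner Mxi1 peak lay inside the window of the third start, which held 49 CpG dinucleotides and had a G and C content of 75.0%. The median over all windows was 7 CpG dinucleotides and 52.7% G and C, and over the windows touched by a peak in both E2F1 lists it was 27 and 65.7%.

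The windows of Myb and Mxd1 held 40 and 39 CpG dinucleotides and those of Max and Mycl 30 and 22. Of the genes with a peak in both lists, Mybl2 had 26, Mxd3 25, Mycn 14 and the 3 Mxi1 windows 17, 21 and 49. The ranges overlap, and 5 of these 6 windows held fewer CpG dinucleotides than those of Myb, Mxd1 and Max. The E-box CACGTG, the site of Myc and Max dimers, stood in 1 of the 10 windows, that of Max, at −3 to +3. It was found in 7.15% of all windows and 11.0% of those touched by a peak in both E2F1 lists. CCAAT, the box bound by NF-Y, occurred 4 times in the Mxd1 window and in none of the other 9, while 37.4% of all windows and 35.9% of those in peaks held it. GGCGCG was found in the windows of Mybl2, Myb, Mycn, Max, Mxd3 and the third start of Mxi1, and in 19.2% of all windows and 54.5% of those in peaks. The CHR element TTTGAA stood in the Mycn window and in 17.9% of all windows (9.31% of those in peaks). Its variant TTCGAA stood in none of the 10 and in 1.56% of all (1.96% in peaks), and the short Myb core AACNG in 9 of the 10 and in 80.3% of all (74.0% in peaks).

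Partners and targets of these factors carried E2F1 peaks too. Of a list of 53 further genes, 43 (81.1%) had a peak in both E2F1 lists, beside 34.4% of all protein-coding genes. In either EV list 0 had one, which is near the EV background of 0.0366% and 0.407% of all protein-coding genes in EV replicates 1 and 2. The highest folds of the 43 genes had medians of 10.1 and 16.5 in replicates 1 and 2. Over all protein-coding genes with a peak in both lists the medians were 10.2 and 13.1. The list was chosen with earlier results of these data known, so its excess over all genes was open to selection. With peaks whose score reached the median of their list, 20 of the 53 remained, beside 17.1% of all protein-coding genes. In each group the 2 genes with the highest mean fold over both lists are named. That mean weighs replicate 2 more, where folds run higher, and the order within a single list can differ. Folds are given for replicate 1 and then replicate 2. Of the Max and Mlx dimer partners 3 of 6 had a peak. The highest means were at Mnt, a Max-binding repressor gene, with folds of 22.2 and 24.3, and Mlxip, with 6.77 and 13.4. Mga and Mlxipl had no peak, and Mlx had 1 in replicate 1 alone.

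All 5 Myb cofactor genes had a peak, with the highest means at Men1, which encodes menin, with folds of 28.7 and 22.1, and at Cebpb, which encodes a factor that acts with Myb in myeloid cells, with 8.24 and 27.5. In replicate 1 Cebpb was also below Kmt2a (15.4) and Ep300 (10.4), and in replicate 2 it was above Men1. Of MuvB and its partner Foxm1, 5 of 6 genes did. The highest means were at Foxm1, a factor for mitotic genes, with folds of 25.7 and 45.8, and the MuvB subunit gene Lin54, with 33.4 and 23.1. Lin54 was first in replicate 1, and in replicate 2 it stood below Lin9 (33.5) and Rbbp4 (30.4). Lin37 had a peak in replicate 2 alone. Foxm1 and Lin54 thus stood above Mybl2, their partner in the complex, in both lists.

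Of the genes for Myc cofactors and Myc turnover, 11 of 14 had a peak, with the highest means at Skp2, a ubiquitin ligase subunit gene, with folds of 24.0 and 46.6, and Usp28, a deubiquitinase gene, with 11.7 and 29.4. Ruvbl1, Ruvbl2 and Huwe1 had none. Of 12 textbook Myc targets 10 did, with the highest means at Odc1, of polyamine synthesis, with 9.87 and 39.2, and Cdk4, with 20.4 and 18.9. The place of Odc1 rests on replicate 2: in replicate 1 it was below Cdk4, Cad (17.6), Ldha (16.7) and Ncl (16.0). Tert had no peak and Ccnd2 had 1 in replicate 1 alone. Of 10 textbook targets of B-Myb and MuvB 9 did, with the highest means at Cdk1, the mitotic kinase gene, with 19.9 and 38.2, and Birc5, with 17.8 and 33.4. In replicate 1 Top2a (18.5) was above Birc5. Cdc20 had none. The folds of some genes differed widely in rank between replicates: Odc1 exceeded 55.0% of peaks in replicate 1 and 94.6% in replicate 2.

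**Figure D5:**
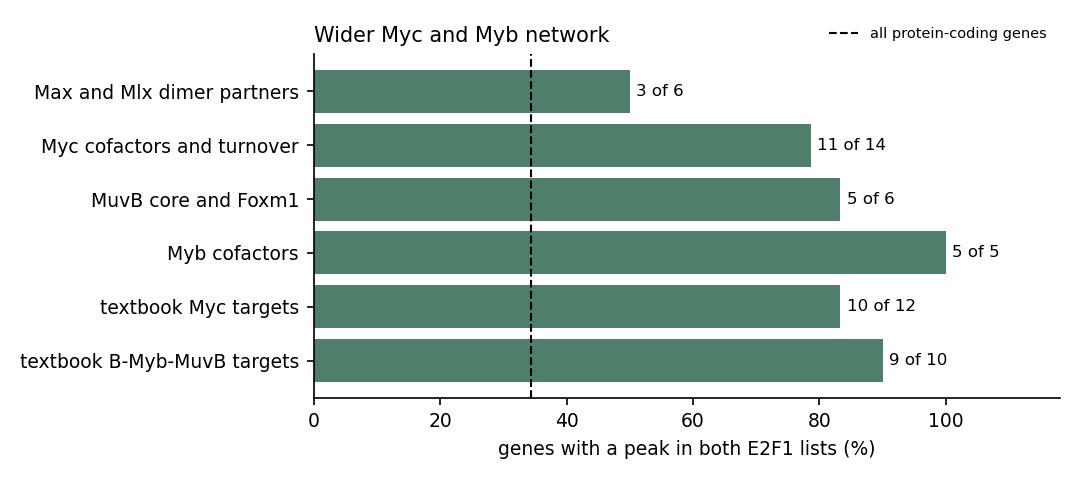
Share of genes with a peak in both E2F1 lists (percent, bars starting at 0) in 6 groups of the wider Myc and Myb network, with the number of genes beside each bar and a dashed line at 34.4%, the share of all protein-coding genes. All 6 bars reach past the line, from 3 of 6 dimer partners to 5 of 5 Myb cofactors. The groups were chosen with earlier results of these data known.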

How the data were processed

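ChIP-seq peak lists of 4 libraries were used, and the 2 input libraries of the EV cells were not analysed here. The submitters' processing notes name FastQC, Trimmomatic, Bowtie2, MACS2, ChIPseeker and build mm10. The extraction protocol describes RNA, and the antibody and the control of each list are not given in the sources used here. The score in the deposited lists equals 10 times the −log10 q-value without its decimals. Fold enrichment, as deposited, is the ratio of the pileup to its local background. The deposited −log10 p-value of every peak is above 10.

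Whole-number pileups and backgrounds were solved from fold, taken as (pileup + 1)/(background + 1), and the Poisson upper tail. Both values were met within 5% of the step between neighbouring pileups for at least 95.71% of peaks per list. The solution and the joining of peaks to genes were tested on simulated data. The simulated pileups did not extend to the lowest and highest at these genes, such as 19 reads at Mycn and 267 at Mxd3. The simulated folds and p-values were made with the same formula, so that test cannot show that the deposited values follow it. No read totals were used. Gene spans and promoters are from RefSeq (GRCm38.p6, which shares the chromosome positions of mm10), with all 10 genes and all 53 further genes found. Coordinates count from 1. Peak numbers rose with position in every list.

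Groups and replicate numbers came from sample titles. Numbers of genes were compared by an exact permutation test over libraries, and all else is description. The 10 genes, the wider list and the motifs were chosen with earlier results of these data known. Named were all 10 genes, the 2 highest mean folds of each subgroup, its genes without a peak in both lists, and the 3 genes nearest the highest member. Alternatives changed the window, score threshold, summit rule, overlap rule, rank measure and libraries used. Python 3.11.15 and SciPy 1.17.1 were used.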

Additional observations from a re-analysis of the deposited data

How the results depend on the processing

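The 6 genes with a peak in both E2F1 lists were the same 6 with windows of 0, 500, 2500 and 5000 bp, with gene boundaries alone, with summits in place of intervals, and with replicate peaks overlapping by 50% or with centres within 200 bp. When a peak's score had to reach the median of its list, Mycn dropped out and 5 remained. That threshold also lowered the wider list from 43 to 20 genes and all protein-coding genes from 34.4% to 17.1%, since it removes the lower-scoring peaks by construction. Without one E2F1 replicate the number was 6 to 7 genes. The difference of 6.50 genes between E2F1 and EV ran from 6 to 7 without one library, and the replicate block gave 6.50 (p = 0.500 in an exact test over sign flips, which cannot go lower with 2 pairs). One number per library cannot show whether replicate numbers pair the samples. Of 30 alternatives for the percentiles of the 6 genes, 7 moved a value by more than the replicate SD. All 7 came from ranking by −log10 p or pileup, as at Mybl2, from 66.7 to 62.9 and 58.7. Each gene was held to its own SD, so large shifts at genes with a wide spread did not count. By −log10 p and by pileup Mycn went from 19.0 to 10.3 and 6.33, and Myc from 64.7 to 61.6 and 58.1. The alternatives that left out an E2F1 replicate are among the 30 but could not move a percentile by this rule. With 2 values, each lies less than the SD from their mean. What can be listed is limited by the filter on p-values, at 1e-10, and by depth. Depth was not taken from read totals. The lowest local background, used in its place, was smallest in EV replicate 2.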
